A study of Mus musculus with 9 samples.

Results

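The 8 genes described here, Dclk1, Rgs13, Avil, Hpgds, Trpm5, Pou2f3, Ptgs1 and Alox5ap, are markers of tuft cells, and they were taken by name from a table of 24421 gene symbols measured in 9 libraries of mouse colon epithelium. All 8 were found, 1 row each. By its labels the table was made from adult female C57BL/6J mice, with no engineered allele or treatment given. Sex-linked transcripts went against the label in 1 library, as described below. The table holds 3 populations sorted by surface antigens with 3 libraries each. The goblet-enriched population was Epcam+, Cd44+ and Kit+ and is labelled as coming from the bottom of the crypt. The enterocyte-enriched population was Epcam+, Cd44-negative and high for Cd66a, and is labelled as coming from the top of the crypt. The Lgr5-enriched population was Epcam+, Cd44+ and Kit-negative, also from the crypt bottom. In all 3 sorts, dead cells, doublets and cells with the leukocyte or endothelial antigens Cd3, Cd16/Cd32, Cd31 or Cd45 were gated out. No gate was set to select tuft cells, so each library is a mixture in which tuft cells may be a small part. Whether the gates that removed cells, such as Cd45, also took out tuft cells was not tested.

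Tuft cells are rare chemosensory cells of the gut lining with a tuft of long microvilli at the apical surface. They sense luminal metabolites and microbes through the signalling chain used by taste cells, in which a G protein activates a phospholipase C and the calcium released opens the cation channel Trpm5. In the intestine they are known for releasing interleukin-25, acetylcholine, prostaglandins and cysteinyl leukotrienes, which act on immune and epithelial cells. The octamer-binding transcription factor Pou2f3 is required for their formation. Dclk1, a microtubule-associated kinase, and Avil, the actin-binding protein advillin, are their usual structural markers. Rgs13 is a regulator of G protein signalling, and Ptgs1, Hpgds and Alox5ap act in eicosanoid synthesis.

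Levels are given in TPM, a transcript abundance scaled for gene length and library size. From the steps between low values, 11.2 to 26.8 M reads per library could be recovered, which puts a single read in a 1 kb gene at 0.0958 to 0.208 TPM. The deepest library, the one labelled Lgr5-enriched replicate 1, was at the upper end, and the library labelled enterocyte-enriched replicate 1 at the lower. The population markers followed the labels in part, by the test and threshold given below, where the shares of all tested genes also stand. Of 8 goblet cell markers, all 8 were higher in goblet-enriched than in Lgr5-enriched libraries, and all 8 were also higher in enterocyte-enriched than in Lgr5-enriched libraries. Of 8 colonocyte markers, all 8 were higher in enterocyte-enriched libraries than in either of the others. Of 8 stem cell markers, 7 were lower in goblet-enriched and 8 lower in enterocyte-enriched than in Lgr5-enriched libraries. Leaving out goblet-enriched replicate 3, 7 goblet cell markers were higher and 6 stem cell markers lower in goblet-enriched than in Lgr5-enriched libraries. Colonocyte markers called lower in goblet-enriched than in enterocyte-enriched libraries were then 7. The library labelled enterocyte-enriched replicate 1 went against its label for sex: Xist stood at 0.128 TPM and Y-linked transcripts summed to 139 TPM, whereas the other 8 libraries had 110 to 204 TPM of Xist and at most 0.325 TPM of Y-linked transcripts. Goblet-enriched replicate 3 stood apart in the tuft cell genes themselves, as described next. Differences of the tuft cell genes from enterocyte-enriched libraries are also given without that enterocyte-enriched library, and those of goblet-enriched libraries without goblet-enriched replicate 3.

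The promoters of the 3 genes that passed a test are shown because Pou2f3, the lineage factor, binds the octamer. Each runs 300 bases, 250 before to 50 after the gene's start, read 5′ to 3′ on the gene's own strand from RefSeq (GRCm38.p6, the mm10 build). Hpgds, the prostaglandin D synthase, is chr6:65144681-65144980 on the minus strand, and capitals mark the octamer ATGCAAAT. Avil is chr10:127000459-127000758 on the plus strand, and capitals mark the 7-letter octamer core ATGCAAA on the gene's strand and its reverse complement TTTGCAT. Rgs13 is chr1:144177323-144177622 on the minus strand, with neither motif and no capitals.
Hpgds: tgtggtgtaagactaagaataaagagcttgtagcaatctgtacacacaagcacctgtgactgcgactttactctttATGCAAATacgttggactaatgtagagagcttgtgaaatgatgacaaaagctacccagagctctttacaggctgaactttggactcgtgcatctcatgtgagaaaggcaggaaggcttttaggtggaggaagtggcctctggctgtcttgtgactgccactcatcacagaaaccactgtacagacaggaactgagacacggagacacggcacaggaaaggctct
Avil: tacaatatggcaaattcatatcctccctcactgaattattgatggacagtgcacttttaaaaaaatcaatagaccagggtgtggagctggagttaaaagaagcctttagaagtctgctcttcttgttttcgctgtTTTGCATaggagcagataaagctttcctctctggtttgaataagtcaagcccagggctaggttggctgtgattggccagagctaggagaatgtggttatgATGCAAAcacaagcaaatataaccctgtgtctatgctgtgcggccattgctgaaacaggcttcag
Rgs13: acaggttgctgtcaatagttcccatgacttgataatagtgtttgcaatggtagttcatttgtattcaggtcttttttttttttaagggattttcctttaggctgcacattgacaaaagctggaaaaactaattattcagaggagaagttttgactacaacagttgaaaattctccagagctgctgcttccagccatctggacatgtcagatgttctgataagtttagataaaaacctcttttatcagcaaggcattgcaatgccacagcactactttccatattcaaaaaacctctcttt
The octamer began 174 bases before the start of Hpgds. In Avil the core began 15 bases before the start on the gene's strand and, on the opposite strand, 115 bases before it. RefSeq promoters were matched for 6 of the 8 genes, with 7 entries because Dclk1 has 2 starts, and Pou2f3 and Alox5ap had no entry. Both strands were searched, and every octamer is also counted as a core. The octamer was found in 1 of the 7 promoters and in 1.74% of 32851 mouse promoters of the same length. The core was found in 2 of the 7 and in 4.63% of the same 32851, and the TATAAA motif was found in none of the 7 and in 13.6% of them. A match describes letters and is not evidence of binding.

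Taken as a group, the tuft cell genes were most abundant in the goblet-enriched population, and within it in 1 library. Their summed level was 11.0, 21.4 and 64.0 TPM in goblet-enriched replicates 1, 2 and 3. It was 7.12, 9.95 and 7.63 TPM in enterocyte-enriched libraries and 10.2, 9.78 and 12.7 TPM in Lgr5-enriched libraries. The sum in goblet-enriched replicate 1 lay inside the Lgr5-enriched range. Goblet-enriched replicate 3 was the highest goblet-enriched library for 8 of the 8 genes, where it was the highest for 32.1% of the 16627 genes detected in goblet-enriched libraries. Across all 9 libraries it was the highest for 7 of the 8, against 6.97% of 18396 genes; the exception was Hpgds, highest in Lgr5-enriched replicate 3. In bulk RNA, fewer cells of a type and less RNA per cell cannot be told apart.

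**Figure D1:**
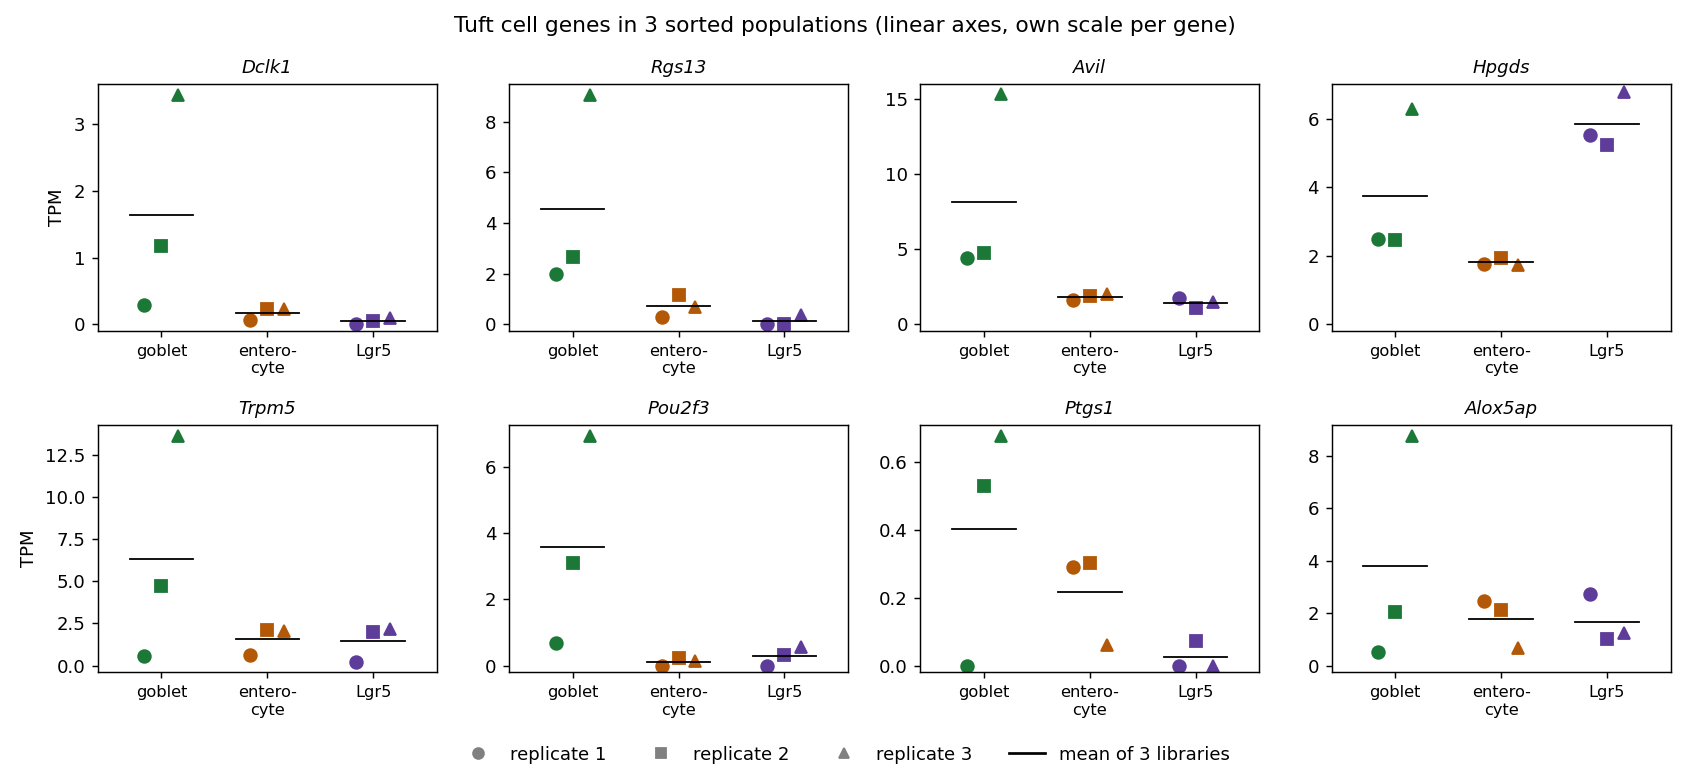
Level in TPM (linear axes, a scale for each gene) of the 8 tuft cell genes in goblet-enriched, enterocyte-enriched and Lgr5-enriched libraries, with a point for each library and a line at the mean of 3. Goblet-enriched replicate 3 is the highest point for 7 genes, and for Hpgds the Lgr5-enriched libraries lie at 5.25 to 6.78 TPM beside it.

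Differences were tested with limma across the 12888 genes that reached 1 TPM in at least 3 libraries, as differences in log2(TPM + 1). On this scale low genes show less than their full change. The threshold for a call was 0.05 for the p adjusted by the Benjamini-Hochberg method over all of them. Rgs13, Avil, Hpgds, Trpm5 and Alox5ap could be tested; Dclk1, Pou2f3 and Ptgs1 did not reach the minimum. Rgs13 reached it through the 3 goblet-enriched libraries and 1 enterocyte-enriched library. Its entry is thus not independent of the goblet-enriched comparisons, and the counts and medians of the 5 below include it. The labels tell libraries apart by gate and replicate number. A p here sets a difference between populations against how much libraries vary, whether the source is the animal or the handling. In goblet-enriched against Lgr5-enriched libraries, 2 of the 5 tested genes were called, both higher, where 10.7% of all tested genes were called higher and 23.6% lower. In enterocyte-enriched against Lgr5-enriched libraries 1 of the 5 was called, and it was lower, with 12.0% of all tested genes called higher and 37.6% lower. In goblet-enriched against enterocyte-enriched libraries 2 of the 5 were called, both higher, with 28.2% of all tested genes called higher and 15.9% lower. The median difference of the 5 was 1.17, 0.14 and 1.03 in these 3 comparisons, beside -0.26, -0.35 and 0.20 for all tested genes.

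Those background shares depend on the scaling. Of all genes called, 31.3% were higher in goblet-enriched against Lgr5-enriched libraries in TPM, 54.3% after median-of-ratios scaling and 49.2% after quantile normalization. The same shares were 24.2%, 54.5% and 45.6% for enterocyte-enriched against Lgr5-enriched libraries. They were 63.9%, 48.1% and 54.8% for goblet-enriched against enterocyte-enriched libraries. Median-of-ratios scaling brought the median difference of all tested genes to -0.05, 0.02 and 0.04 in the same order of comparisons, and the calls of Rgs13, Avil and Hpgds stood under both scalings.

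**Figure D2:**
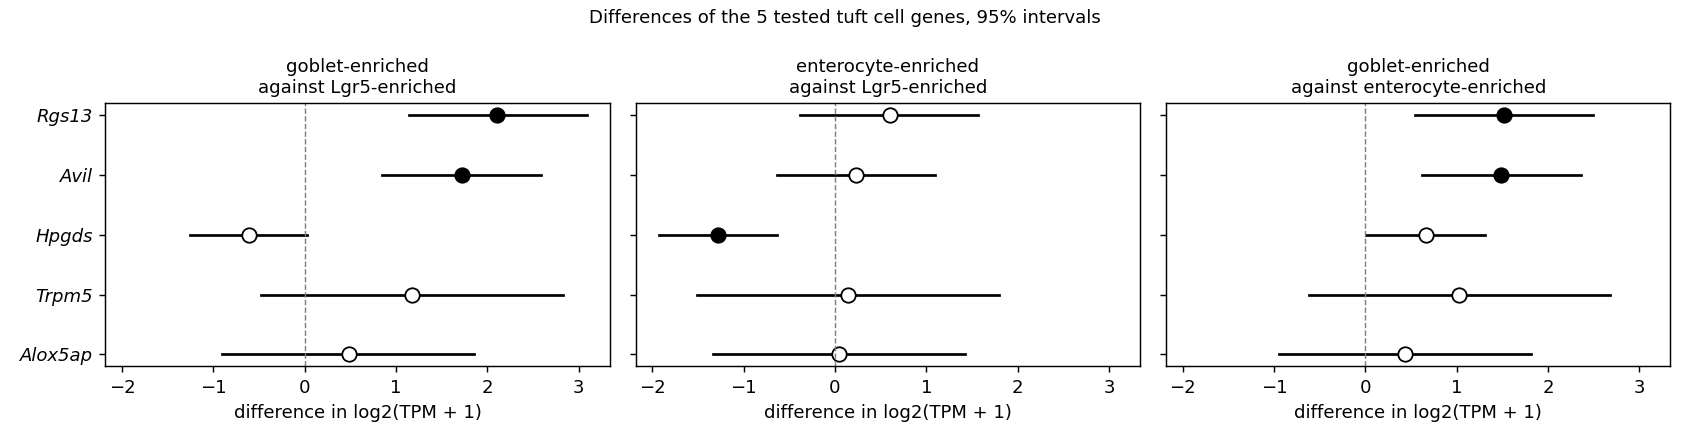
Differences in log2(TPM + 1) with 95% intervals from limma for the 5 tested tuft cell genes in the 3 comparisons of populations, with filled points for adjusted p below 0.05. Rgs13 and Avil are filled to the right in both goblet-enriched comparisons, and Hpgds is filled to the left in enterocyte-enriched against Lgr5-enriched libraries.

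The lineage factor Pou2f3 and the structural markers Dclk1 and Avil stood higher in each goblet-enriched library than in any library of the other populations. Pou2f3 (chr9:43123939-43210369, minus strand, mm10, GENCODE M21) stood at 0.695, 3.08 and 6.91 TPM in goblet-enriched libraries. It stood at 0, 0.230 and 0.138 TPM in enterocyte-enriched libraries and at 0, 0.327 and 0.563 TPM in Lgr5-enriched libraries. The lowest goblet-enriched library was above all 6 others. These values rest on 10, 41 and 90 recovered reads in goblet-enriched libraries, 6 in all in the enterocyte-enriched and 12 in all in the Lgr5-enriched libraries. The read rate was 15.2 times higher in goblet-enriched than in Lgr5-enriched libraries (exact 95% interval 8.45 to 30.2, counting error only, as for all such intervals here). Pou2f3 was below the minimum for the main test. With no minimum it differed by 1.57 in goblet-enriched against Lgr5-enriched libraries (SE 0.48, limma adjusted p = 0.0468), and by 1.76 in goblet-enriched against enterocyte-enriched libraries (SE 0.48, limma adjusted p = 0.0244). Leaving out goblet-enriched replicate 3 brought its mean to 1.89 TPM, against 3.56 ± 3.13 TPM with it (SD, n = 3), and its read rate ratio to 8.10 (4.26 to 16.7). The differences were then 1.04 (SE 0.37, limma adjusted p = 0.10), no longer a call, and 1.23 (SE 0.37, limma adjusted p = 0.0497). Leaving out the library labelled enterocyte-enriched replicate 1 instead, the difference from enterocyte-enriched libraries was 1.68 (SE 0.58, limma adjusted p = 0.0855), also not a call.

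Dclk1, the kinase most often used to stain tuft cells (chr3:55242364-55539068, plus strand), was low throughout. Its level was 0.297, 1.18 and 3.44 TPM in goblet-enriched libraries, 0.0640, 0.234 and 0.228 TPM in enterocyte-enriched libraries and 0, 0.0476 and 0.0956 TPM in Lgr5-enriched libraries. The 3 populations held 334, 42 and 10 reads of it in that order. All 3 goblet-enriched libraries were above the other 6, and the read rate was 43.3 times that of Lgr5-enriched libraries (23.2 to 91.1). Replicate 3 held 231 of the 334 goblet-enriched reads, and without it the ratio was 19.6 (10.3 to 42.1) and the mean 0.739 TPM, against 1.64 ± 1.62 TPM with it (SD, n = 3). With no minimum Dclk1 differed by 1.15 (SE 0.37, limma adjusted p = 0.0554) from Lgr5-enriched and by 0.99 (SE 0.37, limma adjusted p = 0.0760) from enterocyte-enriched libraries, neither past the threshold. Without goblet-enriched replicate 3 these were 0.68 (limma, adjusted p = 0.0630) and 0.52 (limma, adjusted p = 0.110), and the second was 0.92 without the library labelled enterocyte-enriched replicate 1 (limma adjusted p = 0.200). Where an Lgr5-enriched library had 0 reads, its depth allows up to 0.0221 TPM.

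Avil (chr10:127000709-127020994, plus strand) bundles actin in the microvilli of tuft cells. It was measured at 4.39, 4.75 and 15.3 TPM in goblet-enriched libraries, 1.65, 1.86 and 2.01 TPM in enterocyte-enriched libraries and 1.74, 1.09 and 1.46 TPM in Lgr5-enriched libraries. No goblet-enriched library overlapped another population, while enterocyte-enriched and Lgr5-enriched libraries overlapped each other. Avil was higher in goblet-enriched than in Lgr5-enriched libraries by 1.72 (SE 0.38, limma adjusted p = 0.00903, alternatives 0.00498 to 0.0316). It was higher than in enterocyte-enriched libraries by 1.49 (SE 0.38, limma adjusted p = 0.0127, alternatives 0.00740 to 0.0388), and by 1.44 without the library labelled enterocyte-enriched replicate 1 (limma adjusted p = 0.0388). Without goblet-enriched replicate 3 the mean fell to 4.57 TPM, against 8.15 ± 6.21 TPM with it (SD, n = 3), and both differences were still past the threshold at 1.21 (limma, adjusted p = 0.00629) and 0.97 (limma, adjusted p = 0.0104). Avil overlaps Tsfm on the opposite strand, and use of strand in the counting is not given in the sources used here, so its level is uncertain. Tsfm stood at 34.3, 40.3 and 45.4 TPM in goblet-enriched libraries, the same order as Avil, at 37.2, 42.7 and 54.9 TPM in enterocyte-enriched and at 73.9, 68.0 and 70.5 TPM in Lgr5-enriched libraries. The part of Tsfm reads in the Avil level was not tested. Dclk1, Hpgds, Ptgs1 and Alox5ap also overlap annotated entries on the opposite strand, a protein-coding one for Dclk1. The part of such reads in their levels was not tested either.

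The signalling gene Rgs13 was called higher in goblet-enriched libraries in both comparisons, as Avil was. Rgs13 (chr1:144138654-144177372, minus strand), which shortens G protein signals, stood at 1.99, 2.66 and 9.05 TPM in goblet-enriched libraries. Its level was 0.278, 1.16 and 0.698 TPM in enterocyte-enriched libraries and 0, 0 and 0.356 TPM in Lgr5-enriched libraries, where 3 reads were found in all. Goblet-enriched libraries did not overlap either other population. The difference was 2.11 against Lgr5-enriched libraries (SE 0.43, limma adjusted p = 0.00600, alternatives 0.00237 to 0.0213), and the read rate ratio was 46.6 (15.5 to 230), or 24.1 (7.66 to 122) without goblet-enriched replicate 3. Against enterocyte-enriched libraries it was 1.52 (SE 0.43, limma adjusted p = 0.0194, alternatives 0.00781 to 0.0659). That second call was lost without the library labelled enterocyte-enriched replicate 1 (1.32, limma adjusted p = 0.0659) and with limma-voom on the recovered reads (2.30, adjusted p = 0.0518). Without goblet-enriched replicate 3 both calls stood, at 1.58 (limma adjusted p = 0.00782) and 0.98 (limma adjusted p = 0.0344).

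Trpm5, the cation channel that depolarises tuft and taste cells (chr7:143069153-143094642, minus strand), varied most of the 8 between goblet-enriched libraries. It stood at 0.560, 4.71 and 13.6 TPM in goblet-enriched libraries, 0.617, 2.08 and 2.07 TPM in enterocyte-enriched libraries and 0.197, 1.98 and 2.19 TPM in Lgr5-enriched libraries. Replicate 1 was the lowest in each population, and goblet-enriched replicate 1 overlapped both other populations. The differences of 1.17 against Lgr5-enriched libraries (SE 0.73, limma adjusted p = 0.241) and 1.03 against enterocyte-enriched libraries (SE 0.73, limma adjusted p = 0.280) were not past the threshold. With the replicate number as a block, the first became a call (SE 0.40, limma adjusted p = 0.0431) and the second did not (SE 0.40, limma adjusted p = 0.0592). Without goblet-enriched replicate 1 the differences were 2.02 (limma adjusted p = 0.0296) and 1.88 (limma adjusted p = 0.0303). Without goblet-enriched replicate 3 they were 0.41 (limma adjusted p = 0.661) and 0.27 (limma adjusted p = 0.768). The second was 0.72 without the library labelled enterocyte-enriched replicate 1 (limma adjusted p = 0.531). Trpm5 overlaps Tssc4 on the opposite strand, and its level is uncertain for the same reason. Tssc4 stood at 32.1, 45.0 and 57.1 TPM in goblet-enriched libraries, the same order as Trpm5, at 25.5, 19.5 and 30.2 TPM in enterocyte-enriched and at 60.6, 59.3 and 59.3 TPM in Lgr5-enriched libraries. The part of Tssc4 reads in the Trpm5 level was not tested.

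Hpgds departed from the other 7 genes. It makes prostaglandin D2 and lies at chr6:65117293-65144908 on the minus strand. Its level was 2.50, 2.47 and 6.28 TPM in goblet-enriched libraries, 1.77, 1.93 and 1.74 TPM in enterocyte-enriched libraries and 5.52, 5.25 and 6.78 TPM in Lgr5-enriched libraries. Lgr5-enriched libraries were thus high as a group, with 400 reads of Hpgds, and enterocyte-enriched libraries lay below every other library. Hpgds was lower in enterocyte-enriched than in Lgr5-enriched libraries by -1.28 (SE 0.29, limma adjusted p = 0.00568, alternatives 0.00116 to 0.0267), and by -1.27 without the library labelled enterocyte-enriched replicate 1 (limma adjusted p = 0.0185). Goblet-enriched libraries differed from Lgr5-enriched by -0.61 (SE 0.29, limma adjusted p = 0.127), and from enterocyte-enriched by 0.66 (SE 0.29, limma adjusted p = 0.0896). Leaving out goblet-enriched replicate 3 made the first of these a call (-0.97, limma adjusted p = 0.0111), and the second became one with the replicate block (0.66, limma adjusted p = 0.0494) but not when goblet-enriched replicate 3 (0.31, limma adjusted p = 0.257) or the library labelled enterocyte-enriched replicate 1 (0.65, limma adjusted p = 0.166) was left out.

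The other eicosanoid genes were at the edge of detection or varied between libraries. Ptgs1, the constitutive cyclooxygenase (chr2:36230426-36252272, plus strand), stood at 0, 0.529 and 0.675 TPM in goblet-enriched libraries, 0.290, 0.303 and 0.0608 TPM in enterocyte-enriched libraries and 0, 0.0720 and 0 TPM in Lgr5-enriched libraries. That is 18, 11 and 1 reads, and goblet-enriched replicate 1, with 0 reads, allows up to 0.184 TPM. With no minimum Ptgs1 differed by 0.42 between goblet-enriched and Lgr5-enriched libraries (SE 0.18, limma adjusted p = 0.134). Alox5ap, which presents arachidonic acid to 5-lipoxygenase (chr5:149264767-149288153, plus strand), stood at 0.519, 2.06 and 8.78 TPM in goblet-enriched libraries. It stood at 2.46, 2.14 and 0.687 TPM in enterocyte-enriched libraries and 2.74, 1.02 and 1.23 TPM in Lgr5-enriched libraries. Goblet-enriched libraries held both the lowest and the highest value. The difference of 0.48 from Lgr5-enriched libraries (SE 0.61, limma adjusted p = 0.571) turned to -0.25 without goblet-enriched replicate 3, and that of 0.44 from enterocyte-enriched libraries (SE 0.61, limma adjusted p = 0.588) turned to -0.29. The second was 0.63 without the library labelled enterocyte-enriched replicate 1 (limma adjusted p = 0.517).

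Counted by overlap rather than by a model, all 3 goblet-enriched libraries were above all 3 Lgr5-enriched libraries for 4 of the 8 genes (Pou2f3, Dclk1, Avil and Rgs13), beside 11.0% of the 18396 genes above 0. They were above all 3 enterocyte-enriched libraries for the same 4 and Hpgds, 5 of 8, beside 27.4% of genes. Enterocyte-enriched libraries were below all Lgr5-enriched libraries for 1 of 8, Hpgds, beside 34.5% of genes. With 3 libraries against 3, an exact two-sided permutation test cannot go below p = 0.10, the value reached in each of these cases. Between the enterocyte-enriched and Lgr5-enriched populations the other 7 genes overlapped. As a description over the 9 libraries, which share populations and depth, Pearson's r of log2(TPM + 1) was 0.58 to 0.97 (median 0.77) in the 21 pairs without Hpgds and -0.10 to 0.36 (median 0.21) in the 7 pairs with it. Rgs13 and Avil, and Dclk1 and Pou2f3, had the closest profiles (both 0.97).

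The ratio between goblet-enriched libraries differed by gene. Goblet-enriched replicate 3 exceeded replicate 2 by 1.28 (Ptgs1) to 4.27 times (Alox5ap). It exceeded replicate 1 by 2.51 times for Hpgds, 3.49 for Avil and 4.54 for Rgs13, but by 9.93 for Pou2f3, 11.6 for Dclk1, 16.9 for Alox5ap and 24.3 for Trpm5. The genes with the smaller ratios to replicate 1 therefore had similar levels in goblet-enriched replicates 1 and 2.

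A wider list of 36 other tuft cell genes, 35 of them in the table, had its highest level in goblet-enriched replicate 3 for 23 of 35. That library was the highest for 6.97% of 18396 genes. Their mean log2(TPM + 1) was 1.16, 1.67 and 2.37 in goblet-enriched libraries, 1.22, 1.34 and 1.39 in enterocyte-enriched libraries and 1.14, 1.24 and 1.40 in Lgr5-enriched libraries. Only 15 reached the minimum for the test. In goblet-enriched against Lgr5-enriched libraries 3 of the 15 were higher, Sh2d7, Lrmp and Strip2, beside 10.7% of all tested genes. Without goblet-enriched replicate 3 that was 1, Lrmp. The shares of all tested genes are also the background for the counts in the lists that follow. Sh2d7, an SH2-domain protein of tuft cells, stood at 0.445, 3.57 and 9.89 TPM in goblet-enriched libraries, 0.377, 0.788 and 1.26 TPM in enterocyte-enriched libraries and 0.0694, 0.224 and 0.386 TPM in Lgr5-enriched libraries. Its difference was 1.77 (SE 0.60, limma adjusted p = 0.0480, alternatives 0.00296 to 0.123). That call was also lost without the library labelled enterocyte-enriched replicate 1, after median-of-ratios scaling, with limma-voom and with no minimum. Sh2d7 reached the minimum through goblet-enriched replicates 2 and 3 and enterocyte-enriched replicate 3, so its entry is not independent of that call. Lrmp stood at 24.7, 29.4 and 38.8 TPM in goblet-enriched, 38.5, 33.1 and 32.9 TPM in enterocyte-enriched and 1.68 to 4.55 TPM in Lgr5-enriched libraries.

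In enterocyte-enriched against Lgr5-enriched libraries, 1 of the 15 was higher, Lrmp, and 1 lower, Plcg2. Of all tested genes, 12.0% were called higher and 37.6% lower there. In goblet-enriched against enterocyte-enriched libraries 2 of the 15 were higher, Plcg2 and Vav1, beside 28.2% of all tested genes called higher and 15.9% lower. Without goblet-enriched replicate 3 it was Plcg2 alone. Without the library labelled enterocyte-enriched replicate 1 they were Strip2 and Plcg2. Plcg2, a phospholipase C that acts in B cells as well as in tuft cells, stood at 8.04, 12.7 and 17.8 TPM in goblet-enriched libraries, 2.27, 2.93 and 4.26 TPM in enterocyte-enriched libraries and 11.2, 11.0 and 12.9 TPM in Lgr5-enriched libraries. Like Hpgds, it was lowest in the enterocyte-enriched population (1.70 higher in goblet-enriched, SE 0.28, limma adjusted p = 0.00143). With the replicate number as a block, 3 of the 15 were higher and 2 lower in enterocyte-enriched against Lgr5-enriched libraries, and 4 were higher and 3 lower in goblet-enriched against enterocyte-enriched libraries. The counts also changed with scaling: after median-of-ratios scaling 4 of the 15 were higher and 1 lower in enterocyte-enriched against Lgr5-enriched libraries, and 1 was higher and 1 lower in goblet-enriched against enterocyte-enriched libraries.

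**Figure D3:**
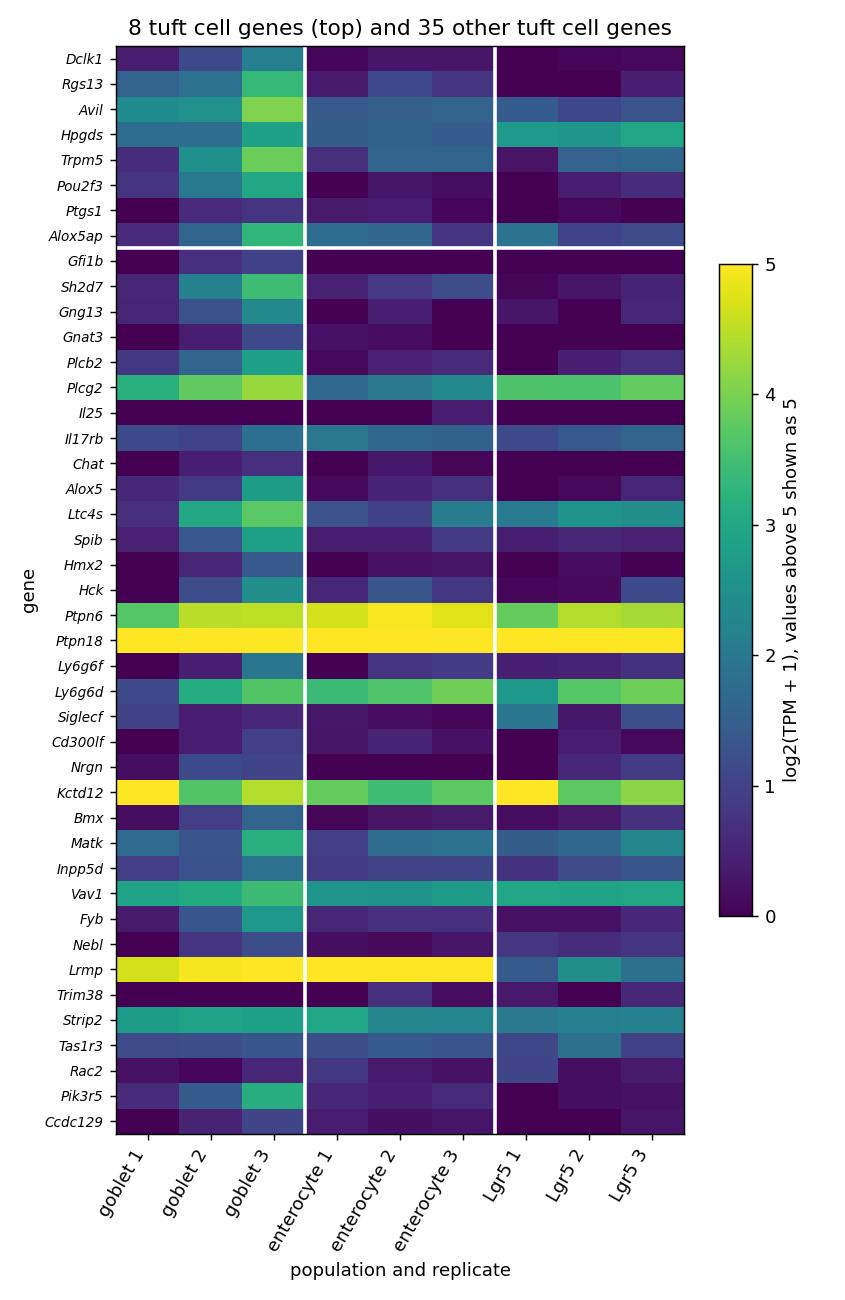
Level in log2(TPM + 1) of the 8 tuft cell genes, above the horizontal line, and of 35 other tuft cell genes in the 9 libraries, with values above 5 drawn as 5. Goblet-enriched replicate 3 has the highest level, before that cap, for 7 of the 8 and 23 of the 35 genes. Lrmp, Ptpn6 and Ptpn18 are bright in more than 1 population, and Lrmp is drawn as 5 in goblet-enriched replicate 3 and in enterocyte-enriched libraries.

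Of the 7 taste transduction genes not tested, Plcb2, Gng13 and Gnat3 were highest in goblet-enriched replicate 3. Plcb2, the phospholipase C upstream of Trpm5, stood at 0.750, 2.10 and 6.06 TPM in goblet-enriched libraries, against at most 0.508 TPM in enterocyte-enriched and 0.621 TPM in Lgr5-enriched libraries. Gng13, a G protein gamma subunit, stood at 0.424, 1.37 and 4.21 TPM in goblet-enriched libraries and at most 0.429 TPM elsewhere. Gnat3, the taste G protein alpha subunit gustducin, reached 1.15 TPM in goblet-enriched replicate 3 and was at 0 in all Lgr5-enriched libraries. The taste receptors Tas1r1 and Tas1r2 stood at 0.252, 0.0680 and 0.208 TPM and at 0, 0.124 and 0 TPM in goblet-enriched libraries, and did not follow that order. The succinate receptor Sucnr1 and the G protein subunit Gnb3 were at 0 in all 9 libraries. Of the 12 taste transduction genes 5 could be tested, and the inositol trisphosphate receptor Itpr3 was the 1 called, lower, in goblet-enriched against Lgr5-enriched libraries. Trpm4, a channel related to Trpm5, was higher and Plcg2 lower in enterocyte-enriched against Lgr5-enriched libraries. In goblet-enriched against enterocyte-enriched libraries Plcg2 was higher, and Itpr3 and Trpm4 were lower.

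Among the regulators of the lineage, the transcriptional repressor Gfi1b was found in 2 libraries only, at 0.624 and 0.956 TPM in goblet-enriched replicates 2 and 3. The homeobox gene Hmx3 stood at 0, 0.277 and 2.41 TPM in goblet-enriched libraries and at most 0.106 TPM elsewhere. Spib, an ETS factor, stood at 0.378, 1.56 and 6.18 TPM in goblet-enriched libraries and at most 0.813 TPM elsewhere. Of 9 regulators, 7 were in the table and 3 were tested. Atoh1, the factor of the secretory lineage and so also of goblet cells, was higher in goblet-enriched (367, 326 and 322 TPM) than in Lgr5-enriched libraries (3.39, 6.42 and 5.77 TPM), and higher in enterocyte-enriched (55.5, 58.4 and 80.9 TPM) than in Lgr5-enriched libraries. Sox9 and Runx1 were lower in enterocyte-enriched than in Lgr5-enriched libraries, and all 3 were higher in goblet-enriched than in enterocyte-enriched libraries.

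The genes around the tuft cell eicosanoid enzymes did not share a single pattern. Of 14 genes of eicosanoid synthesis and breakdown, 8 were tested. In goblet-enriched against Lgr5-enriched libraries 1 was higher, Ptges, and 5 were lower, Ptges2, Ptges3, Lta4h, Alox15 and Hpgd. In enterocyte-enriched against Lgr5-enriched libraries 1 was higher, Hpgd, and 4 were lower, as Hpgds was: Pla2g4a, Ptges3, Lta4h and Alox15. In goblet-enriched against enterocyte-enriched libraries 3 were higher, Pla2g4a, Ptges and Ptges3, and 2 lower, Ptges2 and Hpgd. Ptges, the inducible prostaglandin E synthase, stood at 7.98, 4.83 and 6.00 TPM in goblet-enriched libraries against 1.86, 1.53 and 2.29 TPM in Lgr5-enriched libraries, with no excess in goblet-enriched replicate 3. Hpgd, which breaks prostaglandins down, stood at 52.9, 57.5 and 58.5 TPM in goblet-enriched libraries, 254, 263 and 235 TPM in enterocyte-enriched libraries and 94.6, 143 and 146 TPM in Lgr5-enriched libraries. Alox5 and Ltc4s were highest in goblet-enriched replicate 3, while Lta4h, which makes leukotriene B4, was not. Alox5, the 5-lipoxygenase that works with Alox5ap, stood at 0.496, 0.804 and 5.82 TPM in goblet-enriched libraries and at most 0.616 TPM elsewhere. Ltc4s, the leukotriene C4 synthase, stood at 0.596, 7.09 and 12.2 TPM in goblet-enriched, 1.42, 0.986 and 3.26 TPM in enterocyte-enriched and 3.10, 4.91 and 4.53 TPM in Lgr5-enriched libraries, and was called in none of the 3 comparisons.

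Among 6 genes of the tuft cell cytokine circuit, interleukin-25 itself was listed at 0 in 8 libraries. Of 3 tested, Il13ra1 and Il4ra, subunits of the receptor through which interleukin-13 acts on epithelium, were higher in goblet-enriched than in both Lgr5-enriched and enterocyte-enriched libraries. Il13ra1 stood at 216, 170 and 123 TPM in goblet-enriched, 109, 105 and 86.3 TPM in enterocyte-enriched and 62.5, 59.7 and 45.2 TPM in Lgr5-enriched libraries, and was also higher in enterocyte-enriched than in Lgr5-enriched libraries. Its lowest goblet-enriched value was in replicate 3, the library with the most tuft cell transcripts. Against enterocyte-enriched libraries, neither gene was called after median-of-ratios scaling, and Il13ra1 alone after quantile normalization.

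Some of the 8 genes are also expressed by mast cells and other leukocytes, and mast cells carry Kit, the antigen that defined the goblet-enriched gate; Cd45+ cells were gated out. Of 12 mast cell markers, Cpa3, Tpsab1, Fcer1a and Ms4a2 were at 0 in all 9 libraries. The summed level was 49.8, 20.4 and 18.5 TPM in goblet-enriched, 7.10 to 12.5 TPM in enterocyte-enriched and 0.854 to 2.23 TPM in Lgr5-enriched libraries. In goblet-enriched libraries most of the sum was Cma1, a mast cell protease, at 48.6, 18.1 and 14.0 TPM. The proteases Tpsb2 (0, 1.39 and 2.13 TPM), Mcpt1 (0, 0 and 0.753 TPM) and Mcpt2 (0, 0 and 0.797 TPM) were highest in goblet-enriched replicate 3 among goblet-enriched libraries. So were Hdc (0.219, 0.158 and 0.242 TPM) and the mean log2(TPM + 1) of the list (0.59, 0.55 and 0.68). Gata2 (0.757, 0.643 and 0.477 TPM) and Cd200r3 (0.238, 0.0858 and 0.0877 TPM) were highest in replicate 1, as Cma1 was. The part of mast cells in the tuft cell gene levels was not tested. Leukocyte markers, 12 genes, summed to 12.5 to 25.0 TPM in goblet-enriched, 20.2 to 254 TPM in enterocyte-enriched and 14.0 to 25.5 TPM in Lgr5-enriched libraries, and Lyz2 made up most of the highest sum. Ptprc, which encodes Cd45, stood at 0, 0.201 and 1.20 TPM in goblet-enriched libraries and at most 0.153 TPM elsewhere, so it too was highest in goblet-enriched replicate 3. Stromal, endothelial and neural markers summed to 0.669, 3.38 and 5.69 TPM in goblet-enriched replicates 1, 2 and 3, the same order as the summed tuft cell genes, and to 5.67 to 8.04 TPM in enterocyte-enriched and 5.83 to 8.55 TPM in Lgr5-enriched libraries.

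Among goblet-enriched libraries, colonocyte and enteroendocrine markers were also highest in replicate 3, while stem cell markers were not. The mean log2(TPM + 1) of 8 colonocyte markers was 1.98, 2.29 and 4.85 in goblet-enriched libraries, 8.63 to 9.78 in enterocyte-enriched and 3.60 to 3.66 in Lgr5-enriched libraries, with none of the 8 at 0 in any library. The 12 enteroendocrine markers summed to 23.8, 59.8 and 104 TPM in goblet-enriched libraries, 155 to 259 TPM in enterocyte-enriched and 187 to 360 TPM in Lgr5-enriched libraries; of them Nts was at 0 throughout. The part of these other cells in the tuft cell gene levels was not tested.

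**Figure D4:**
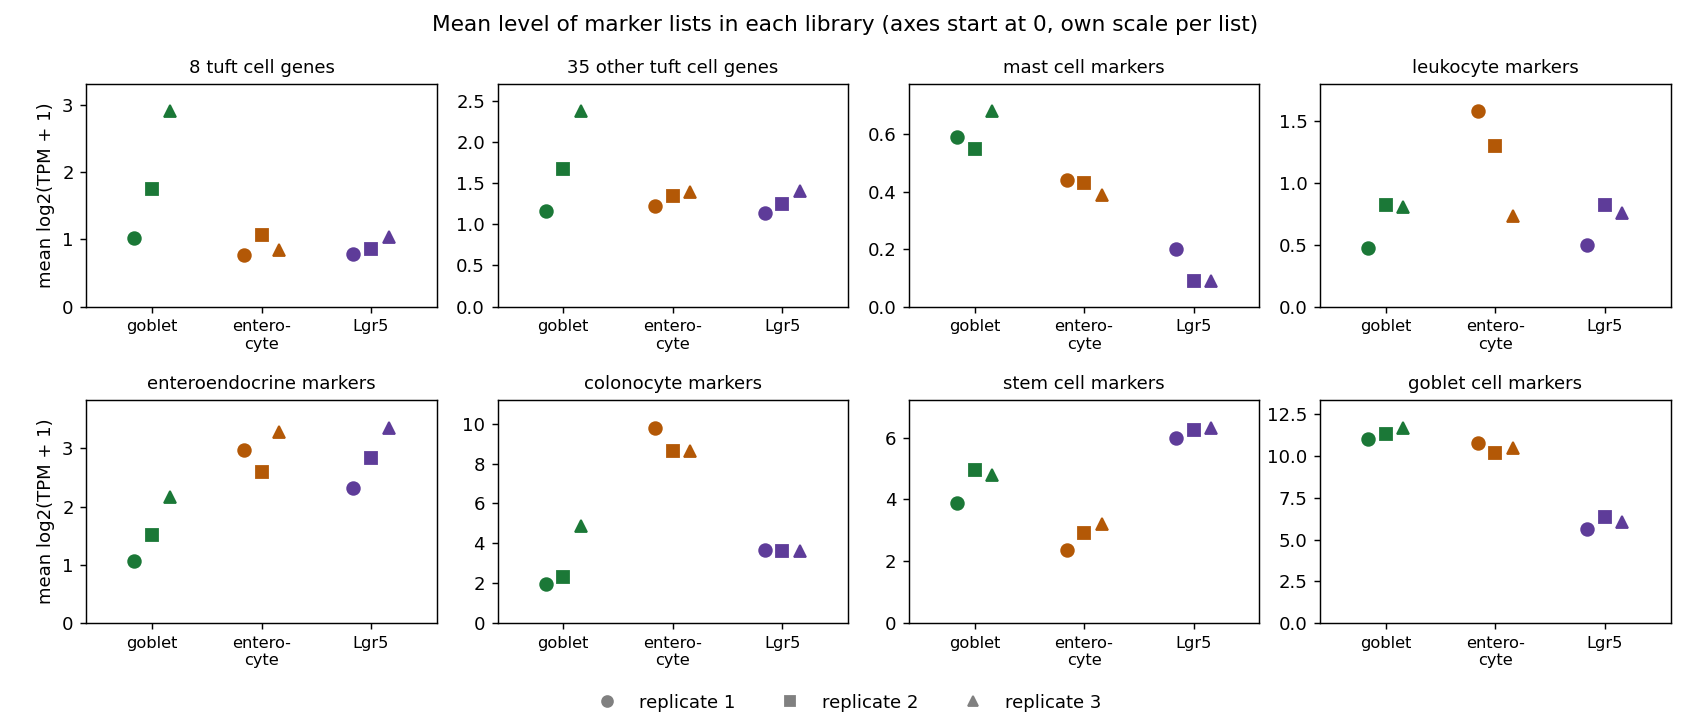
Mean log2(TPM + 1) of 8 marker lists in each library of the goblet-enriched, enterocyte-enriched and Lgr5-enriched populations, on axes that start at 0. In goblet-enriched libraries the tuft cell lists and the colonocyte list are highest in replicate 3 (2.91, 2.37 and 4.85). So are the enteroendocrine (2.17), goblet cell (11.67) and mast cell (0.68) lists. The stem cell and leukocyte lists are highest in goblet-enriched replicate 2 (4.95 and 0.82).

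The tested genes whose profile over the 9 libraries was most like the mean standardised profile of the 5 tested tuft cell genes were ranked by Pearson's r, as a description. The first 10 were 1810046K07Rik (0.935), Aup1 (0.911), Slc29a4 (0.907), Sh2d7 (0.898), Twf2 (0.894), Ak1 (0.889), Inpp5d (0.889), Samd14 (0.885), Pygl (0.869) and Zc2hc1c (0.868). The r of the 5 genes themselves with that profile ran between 0.47 (Hpgds) and 0.89 (Avil). Sh2d7 and Inpp5d, a lipid phosphatase of blood cells, were on the list of other tuft cell genes. Slc29a4, a monoamine transporter, stood at 1.63, 4.96 and 13.8 TPM in goblet-enriched libraries and at most 2.42 TPM elsewhere. Pygl, the liver form of glycogen phosphorylase, stood at 0.684, 4.03 and 10.2 TPM in goblet-enriched libraries and at most 2.34 TPM elsewhere. Aup1 and Twf2 had high r with a narrow range, at 160 to 250 TPM and 25.4 to 44.2 TPM over all 9 libraries.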

How the data were processed

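The authors deposited 1 log2 value per gene symbol and library, which by its values is log2(TPM) for levels of 1 TPM and above and TPM less 1 under that, since every back-transformed library then reaches the same TPM total. Per the submitters' processing notes, Cufflinks and the mm10 build were used; no aligner, annotation or strand setting is named there. Per the labels' protocols, the kit was stranded and selected poly-A RNA, and 2 instruments were in use, single-end and paired-end; the instrument of each library is not given in the sources used here.

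Samples were grouped by the labelled gate. TPM was back-transformed and tested as log2(TPM + 1) with limma 3.58.1 (R 4.3.3; lmFit, eBayes with trend, 9 libraries, 1 mean per population, residual df 6, two-sided), after a minimum of 1 TPM in 3 libraries. The test was tried on simulated data. Whole reads were recovered for 99.95% of genes above 0 (tolerance 1e-06 reads); they are lower bounds. They gave exact intervals and floors, which cover counting error only, a floor being the level of 3 reads. limma-voom on them called 1455 genes higher and 2483 lower in goblet-enriched against Lgr5-enriched libraries. Same-numbered libraries deviated together from their population means (r 0.19 to 0.60 in 9 pairs, and -0.52 to 0.17 in the 18 other pairs). The number was therefore used as a block in an alternative fit, and the main test left it out. The series text speaks of 3 mice. The library labelled enterocyte-enriched replicate 1 differs from goblet-enriched and Lgr5-enriched replicate 1 in sex-linked transcripts, so these 3 cannot all be from 1 mouse. The fit with that block, other scalings, filters and pseudocounts and leaving out each library were among 20 alternatives; leaving out goblet-enriched replicate 3 or enterocyte-enriched replicate 1 for read ratios, genes below the minimum and list counts was chosen after seeing the data.

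The 8 genes and the other lists were chosen with earlier results of these data known. Besides the 8, genes named were those called in a comparison, defining mast cell and leukocyte markers, and the 10 with the most similar profile; low genes of the lists shown by their values were picked after these were seen. Positions are from GENCODE M21.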

Additional observations from a re-analysis of the deposited data

How the results depend on the processing

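Of 288 recomputed differences of the tested tuft cell genes, 269 kept direction and side of the threshold, 2 lost the call, 7 gained it and 10 changed sign. With a minimum of 5 TPM in 3 libraries Hpgds alone was tested, so 0 genes were called in goblet-enriched against Lgr5-enriched (limma unadjusted p = 0.0719) and against enterocyte-enriched libraries (limma unadjusted p = 0.0553). limma-voom on recovered reads called 1 gene, Avil, in goblet-enriched against enterocyte-enriched libraries. Leaving out 1 library, 1 to 3 genes were called in that comparison, with 1 without enterocyte-enriched replicate 1. Over all genes, 2660 (without Lgr5-enriched replicate 3) to 4598 were called in goblet-enriched against Lgr5-enriched libraries, against 4423 with all libraries. Leave-one-out differences changed sign for genes in comparisons where no setting called them. Trpm5 in enterocyte-enriched against Lgr5-enriched libraries ran between -0.31 and 0.45, and was -0.0022 with replicates 2 and 3 alone. Alox5ap ran between -0.25 and 1.09 in goblet-enriched against Lgr5-enriched, -0.15 and 0.37 in enterocyte-enriched against Lgr5-enriched, and -0.29 and 1.05 in goblet-enriched against enterocyte-enriched libraries. The cause was not tested. The replicate block changed no call of the 5 genes besides Trpm5 (1.17, limma adjusted p = 0.0431) and Hpgds (0.66, limma adjusted p = 0.0494). Dclk1, Pou2f3 and Ptgs1 had 10, 12 and 1 reads in Lgr5-enriched libraries, and were below the 1 TPM minimum.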
